A study of Mus musculus with 3 samples.

Results

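The miR-290 to miR-295 cluster is a run of microRNA (miRNA) hairpins near the start of mouse chromosome 7, and it held the HBO1 chromatin immunoprecipitation and sequencing (ChIP-seq) peak with the highest fold enrichment in these data. HBO1 is the catalytic subunit of a histone acetyltransferase complex. The region from position 3200001 to 3240000 of chromosome 7 (mm10) was chosen by that measured fold enrichment, so the height, rank and width of its peak are given as a description, with no test. Its members were Mir290a, Mir291a, Mir294 and Mir295 with the other hairpins of the cluster. In GENCODE vM21, 9 of 2202 annotated miRNA genes lay in the region, as did 1 of the 13823 HBO1 peaks. The cells were Oct1 deficient mouse embryonic stem cells (ESCs), that is, cells without the POU factor of the Pou2f1 gene, a paralog of Oct4. They were grown with LIF, the MEK inhibitor PD0325901 at 1 µM, the GSK3 inhibitor CHIR99021 at 3 µM and ascorbic acid. They were kept on feeder fibroblasts, which were depleted before the experiments. The samples were 2 HBO1 immunoprecipitations and 1 input, the sonicated chromatin kept back before the antibody was added. Every sample had this genotype and culture and was fixed with 1% formaldehyde for 10 min. The antibody field of the second ChIP sample reads HBO2, while its title reads HBO1. One list of peaks covers the ChIP samples, so its values have no spread between replicates, and no p-value was computed. No RNA was measured, so neither the level of any miRNA nor the ESC identity of the cells could be checked here.

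Primary miRNA transcripts are cut into hairpins in the nucleus and then, in the cytoplasm, into short mature miRNAs, which repress messenger RNAs that pair with their seed, the stretch near the 5′ end. The miR-290 cluster is expressed from a single primary transcript in early mouse embryos and ESCs and is silenced as the cells differentiate. Several of its miRNAs share the hexamer AAGUGC with the miR-302 family and are known to repress inhibitors of the step from G1 to S phase, such as Cdkn1a, Rbl2 and Lats2.

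The mature sequences show which hairpins share a seed, and so which members of a seed group lay inside the HBO1 peak. They are those of RefSeq for GRCm38, written 5′ to 3′ with the seed (bases 2 to 8) in capitals. Among those printed first, miR-290a-3p, miR-291a-3p and miR-291b-3p came from hairpins inside the peak, and miR-294-3p and miR-295-3p from hairpins outside it. The sequence of miR-292a-3p, from Mir292 inside the peak, is not printed here and is in none of the seed counts.
miR-290a-3p: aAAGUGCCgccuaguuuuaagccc
miR-291a-3p: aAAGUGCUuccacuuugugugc
miR-291b-3p: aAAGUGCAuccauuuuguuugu
miR-294-3p: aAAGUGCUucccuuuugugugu
miR-295-3p: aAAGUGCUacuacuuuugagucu
All of these begin the seed with AAGUGC. By contrast, miR-290b-3p, from the hairpin annotated on the opposite strand of Mir290a, has AAGUGC at its very 5′ end, and miR-293-3p starts with AGUGC, so their seeds are shifted.
miR-293-3p: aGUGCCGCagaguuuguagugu
miR-290b-3p: aAGUGCCCccauaguuugagua
The 5p arms fall into other seed groups. The seed CUCAAAC was shared by miR-290a-5p, miR-292a-5p and miR-293-5p and by none of the other mature miRNAs in the RefSeq table, and AUCAAAG was shared there by miR-291a-5p and miR-291b-5p.
miR-290a-5p: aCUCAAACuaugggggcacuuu
miR-292a-5p: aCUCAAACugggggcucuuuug
miR-293-5p: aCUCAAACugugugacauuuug
miR-291a-5p: cAUCAAAGuggaggcccucucu
miR-291b-5p: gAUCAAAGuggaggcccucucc

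The table held 5 mature miRNAs with the seed AAGUGCU. That is a count of its entries only. The table lacks miR-292a-3p and may lack others, so a hairpin not named here, such as Mir302a, may still carry this seed. The 5 were miR-291a-3p, miR-294-3p and miR-295-3p of this cluster, with miR-302b-3p and miR-302d-3p of the miR-302 cluster on chromosome 3, which are shown for comparison.
miR-302b-3p: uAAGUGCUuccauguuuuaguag
miR-302d-3p: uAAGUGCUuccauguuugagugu
These 5 lay within 1 kb of 2 HBO1 peaks, 1 for each cluster, where 6.90% of all miRNA genes had a peak that near. The miRNA sequences themselves lay 0 bp from the peak for miR-291a-3p, 865 bp for miR-294-3p and 989 bp for miR-295-3p, and 739 and 349 bp from a different peak for miR-302b-3p and miR-302d-3p. The seed AAGUGCA of miR-291b-3p recurred in miR-350-5p on chromosome 1, whose nearest HBO1 peak was 41175 bp away. The 7 hairpins on the plus strand were related but far from identical in sequence. Over the 21 pairs, global alignment gave between 51.1% and 71.4% identity, with a median of 59.6%. Mir290a and Mir293 were the most alike, although Mir290a lay inside the HBO1 peak and Mir293 outside it.

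The HBO1 peak ran from 3217715 to 3219826 on chromosome 7, a width of 2112 bp. It began 911 bp before the Mir290a hairpin, which lies at 3218626 to 3218708 on the plus strand. It ended 266 bp after Mir291b, at 3219482 to 3219560. The hairpins Mir290a, Mir291a (3218919 to 3219000), Mir292 (3219189 to 3219270, the source of miR-292a) and Mir291b lay wholly in the peak. So did Mir290b (3218638 to 3218695) and Mir292b (3219198 to 3219259), which are annotated on the minus strand within Mir290a and Mir292. That made 6 of the 9 hairpins. Over all annotated miRNA genes, 4.04% were overlapped by an HBO1 peak (89 of 2202; exact binomial 95% confidence interval 3.26 to 4.95%).

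The remaining hairpins lay beyond the end of the peak. Mir293 (3220343 to 3220422) began 517 bp from the peak edge, Mir294 (3220641 to 3220724) 815 bp and Mir295 (3220773 to 3220841) 947 bp. The peak therefore held the 4 hairpins at the 5′ end of the cluster on the plus strand and not the 3 at its 3′ end. The spacing of the hairpins breaks at the same place. Neighbouring hairpins were 188 to 211 bp apart from Mir290a to Mir291b, 782 bp apart from Mir291b to Mir293, and 218 and 48 bp apart after that.

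The summit, the point of highest enrichment, was at 3219463. It fell in the gap between Mir292 and Mir291b, 193 bp after the end of Mir292 and 19 bp before Mir291b. It was 837 bp downstream of the start of Mir290a, and 463 bp from the nearest base of Mir291a. From Mir294 it was 1178 bp away, and from Mir295 1310 bp. The summit was thus not centred in the peak. It lay 82.8% of the way along it, whereas the median over all peaks was 49.3%, and 534 of 13823 peaks had a summit placed further toward the end with the higher coordinate.

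**Figure D1:**
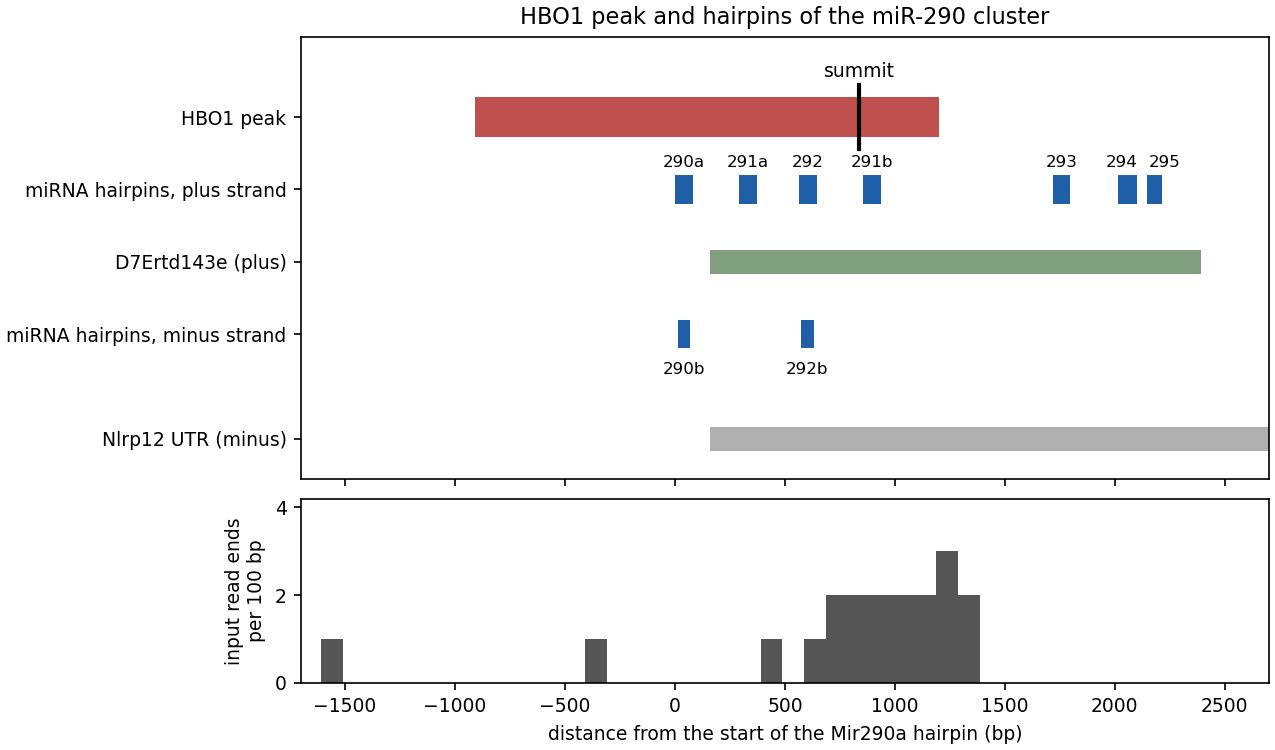
Map of the miR-290 cluster by distance from the start of Mir290a in bp, with the HBO1 peak (red), its summit (black line), the hairpins on either strand (blue), the RefSeq transcript D7Ertd143e (green) and the GENCODE UTR of Nlrp12, which runs past the right edge (gray). The lower panel gives input read ends per 100 bp. The peak covers Mir290a to Mir291b and ends before Mir293, Mir294 and Mir295.

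The peak also covered the annotated start of the long noncoding RNA D7Ertd143e, which RefSeq places on the plus strand at 3218784 to 3221015, over the hairpins from Mir291a to Mir295, with Mir290a before its annotated start. This start was 679 bp upstream of the summit, and the peak held 46.7% of the 2232-bp gene. On the minus strand, the 3′ end of Nlrp12, which encodes a NOD-like receptor, runs through the cluster. GENCODE places Nlrp12 at 3218784 to 3249740, and the summit lay in the UTR of its last exon (3218784 to 3222475). The annotated start of Nlrp12 was 29914 bp from the peak, and it had no nearer HBO1 peak. Over all protein-coding genes, 18.7% had their outermost annotated start within 1 kb of an HBO1 peak. ChIP-seq does not tell the strands apart, so the peak cannot be given to the miRNA strand or to the Nlrp12 strand.

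The bases before the start of D7Ertd143e are printed here because they hold Mir290a and lie outside the GENCODE UTR of Nlrp12, although a noncoding RefSeq transcript of Nlrp12 ends within them, at 3218643. This stretch is chr7:3218534-3218783 of GRCm38, plus strand, 250 bp, with the Mir290a hairpin in capitals.
upstream of D7Ertd143e: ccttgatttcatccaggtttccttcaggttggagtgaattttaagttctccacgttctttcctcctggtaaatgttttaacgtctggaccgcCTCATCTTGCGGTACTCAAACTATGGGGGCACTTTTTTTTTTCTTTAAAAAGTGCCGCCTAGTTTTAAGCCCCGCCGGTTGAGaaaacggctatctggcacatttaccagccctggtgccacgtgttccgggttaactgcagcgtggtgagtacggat
It held 12 CpG dinucleotides and had a GC content of 47.6%. Around the summit, 300 bp held 15 CpG dinucleotides at a GC content of 55.3%, against medians of 11 and 57% in the 300 bp around the summits of all peaks. Over the whole peak, the GC content was 49.8%, against a median of 56.7%, and 321 of the 13823 peaks had a lower one. The peaks ranked 1 to 10 by fold enrichment ran from 43.0% to 50.1%, so a low value was not particular to this peak. Bases that the assembly marks as repeats made up 15.1% of the peak, compared with a median of 8.14%.

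Oct4 and its partners are known regulators of ESC genes, so short motifs were searched on both strands of the peak. The octamer ATGCAAAT had no match in the peak, and the MORE (2 copies of ATGCAT in a row, with at most 1 mismatch) had none either. Klf (GGGTGTGG), Esrrb (TCAAGGTCA) and TATAAA also had no match. In the 300 bp around the summit, the octamer was present in 0.405% of all peaks, the MORE in 0.0434%, Klf in 3.33%, Esrrb in 0.572% and TATAAA in 3.60%.

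The motifs with a match were few. They are shown with 6 flanking bases in lower case, on the strand that carries the motif, because the matches to Tcf/Lef fall within the miRNA sequences themselves. Sox (CATTGT) matched at 3218477 and 3219160, Tcf/Lef (CTTTGAT) at 3218933 and 3219495, the E-box CACGTG at 3218745 and 3219779, and CCAAT at 3217785.
Sox upstream of Mir290a: tggtttCATTGTagaaat
Sox before Mir292: caggtgCATTGTagattg
Tcf/Lef in Mir291a: cctccaCTTTGATggccgc
Tcf/Lef in Mir291b: cctccaCTTTGATcgacac
E-box after Mir290a: tggtgcCACGTGttccgg
E-box after Mir291b: aaatctCACGTGgccgcc
CCAAT at the start of the peak: agggggCCAATgagcct
The Tcf/Lef matches, on the minus strand, lay exactly on bases 2 to 8 of miR-291a-5p and miR-291b-5p, whose seed AUCAAAG is the reverse complement of the motif. The match in Mir291b was 32 bp from the summit and was the only motif match in the 300 bp around it. In that window, Tcf/Lef was found in 1.87% of all peaks, Sox in 7.12%, the E-box in 5.11% and CCAAT in 25.3%. The whole peak is a longer sequence, so its matches cannot be set against these shares. A match describes letters only and does not show that a factor was bound.

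The peak was tall and wide at the same time. Its fold enrichment over the local background, as the authors' peak caller gave it, was 24.4, and the next value in the list was 23.1. The −log10 q was 125, which ranked 23 of 13823, and the width ranked 11. On chromosome 7 it had the highest −log10 q and the largest width of 905 peaks. The other 10 peaks that were at least as wide had a median fold enrichment of 4.78 and a highest value of 11.5. Conversely, the 100 peaks with the highest fold enrichment had a median width of 476 bp, against 2112 bp here, although the widest of those 100 reached 7410 bp and 2 of the 10 wider peaks had a fold enrichment over 10.

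**Figure D2:**
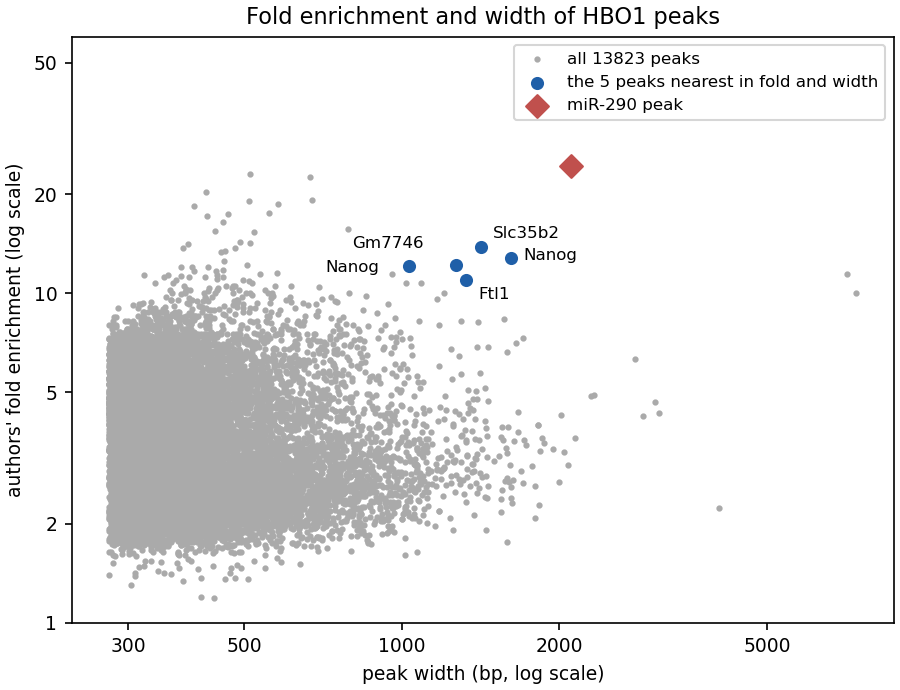
The authors' fold enrichment (log scale) against peak width in bp (log scale) for all 13823 HBO1 peaks (gray), the miR-290 peak (red diamond) and the 5 peaks nearest to it in both measures (blue, named by the nearest gene start). The miR-290 peak, chosen for its fold enrichment, is at 24.4 and 2112 bp, and the 5 blue peaks reach 10.98 to 13.8 and 1034 to 1617 bp.

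The 5 peaks most alike in fold enrichment and width were found by the distance between log2 values, each divided by its SD over all peaks. For 2 of the 5, the nearest outermost gene start was that of Nanog, which encodes a homeodomain factor of the pluripotency network. This naming takes no account of gene bodies or of other transcript starts, so it does not assign these 2 peaks to Nanog. The 2 peaks lay on chromosome 6. One was at 122740896 to 122742512, with a fold enrichment of 12.8 over 1617 bp, and the other at 122737104 to 122738137, with 12.1 over 1034 bp. These were 33407 and 29615 bp from the annotated start of Nanog. A peak 2365 bp from the start of Slc35b2, which encodes a sulfate donor transporter, had a fold enrichment of 13.8 over 1416 bp. The peak across the start of Ftl1, which encodes ferritin light chain, had 10.98 over 1327 bp. The remaining peak was on the X chromosome, 136092 bp from the pseudogene Gm7746, with a fold enrichment of 12.2 over 1272 bp, and all of it was marked as repeats. All 5 had a smaller width than the miR-290 peak. Their lower fold enrichment follows from the choice of the region by the highest value.

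Around the cluster, the HBO1 peaks were sparse. The nearest peak toward higher coordinates was at 3301970 to 3302296, 82144 bp away, and reached a fold enrichment of 3.61 (−log10 q 7.71). Toward lower coordinates it was at 3055491 to 3056004, 161711 bp away, and reached 9.002 (−log10 q 14.9). The median distance from a peak to its nearest neighbour was 25415 bp, and 74.1% of peaks had a shorter one than this peak. No peak was listed over EC(Mir290), a regulatory region that RefSeq annotates at 3199611 to 3215602 from CRISPR interference work. Its near end was 2113 bp from the peak. The nearest annotated genes outside the region were pseudogenes, Gm3375 at 3181093 to 3181888 and Gm20553 at 3264349 to 3265192. The nearest protein-coding genes were AU018091, whose start was 48512 bp from the miR-290 peak, and Myadm, a myeloid differentiation marker whose start was 69254 bp from it and 12890 bp from the peak at 3301970.

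The fold enrichment is a ratio to the background, so the input under the peak was counted. The peak held 13 of the 31973678 input read ends, from 7 read pairs, which is 6.16 read ends per kb (exact Poisson 95% interval 2.47 to 12.7, taken over the pairs, since the ends of a pair are not independent). All 13 had a mapping quality of 70, and none repeated the position of another. In the 5 kb before the peak the input was 4.80 read ends per kb (2.80 to 7.69), and in the 5 kb after it 4.20 (2.296 to 7.05). These intervals overlap and cover counting error only. The read ends were not spread evenly along the peak. The 911 bp before Mir290a held 1 read end, the 935 bp from Mir290a to the end of Mir291b held 7, and the last 266 bp held 5. In 1-kb windows centred on the hairpins, the input was 16 read ends at Mir291b, 10 at Mir292 and 5 at Mir291a. It was 2 at Mir290a and at Mir293, and 0 at Mir294 and Mir295. A count of 0 does not show that input was absent there. The windows of neighbouring hairpins overlap and can count the same read ends, so these are not separate values. The window at Mir291b also runs past the end of the peak.

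Within 500 bp of the summit on either side the input held 16 read ends, against a median of 19 over all peaks. Over its whole width the peak had 6.16 input read ends per kb, against a median of 27.9, and 11467 of the 13823 peaks had more. Peaks with little input tended to have a higher fold enrichment in this list. The median was 5.79 for the 268 peaks with 0 read ends around the summit, and 2.28 for the 2115 peaks with over 100. The lowest fold enrichment listed in these classes was 3.83 and 1.19. Only peaks that passed the q cutoff are listed, so the trend cannot be told apart from this filter. Among the 2720 peaks with 11 to 30 read ends, the class that holds the miR-290 peak, the fold enrichment ran from 2.04 to 24.4 with a median of 4.09. Each of the 10 other peaks that were at least as wide had more input per kb, with a median of 108. The part of the input in the height of the peak was not tested, since reads from the immunoprecipitated chromatin were not used here.

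**Figure D3:**
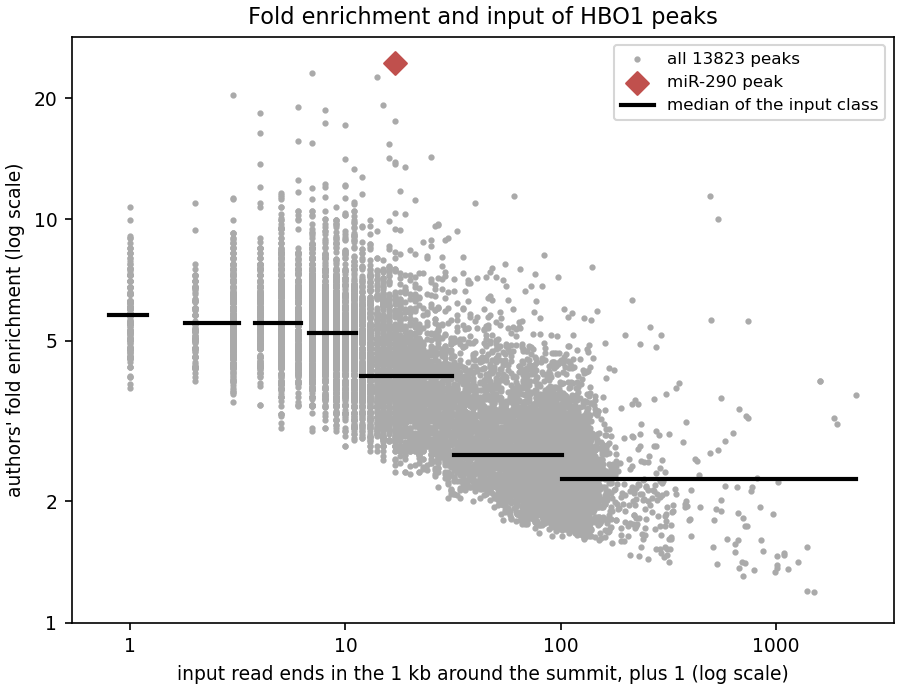
The authors' fold enrichment (log scale) against the number of input read ends within 500 bp of the summit plus 1 (log scale) for all 13823 peaks (gray), the miR-290 peak (red diamond) and the median of each class of input (black lines). The miR-290 peak, with 16 read ends and the highest fold enrichment of the list, lies in a class whose median is 4.09.

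Over the whole region, the 40 windows of 1 kb held 0 to 28 input read ends with a median of 7. Of these read ends, 98.6% had a mapping quality of at least 20, compared with 68.5% in the genome. The genome value was lowered by chromosomes 2 and 9, which held the most read ends. There 6434781 of 9234011 and 2928172 of 7896004 had that quality, against 877366 of 996313 on chromosome 7. Relative to autosomal windows of matched GC content, with chromosome 3 left out, the region held 1.42 times the input (Poisson 95% interval over read pairs 1.21 to 1.65). The windows were not matched for how uniquely reads map there. With read ends of any mapping quality, the ratio of the region was 1.30. Chromosome 7 from 3 to 5 Mb held 1.05 times. The 3 windows that touch the peak held 0.748 times (0.373 to 1.34), and the other 37 windows of the region 1.52 times (1.29 to 1.77). These intervals overlap. The 3 windows differed, with ratios of 0.280, 0.118 and, for the window that holds the summit, 1.27. With 1 input sample, none of these ratios has a replicate.

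**Figure D4:**
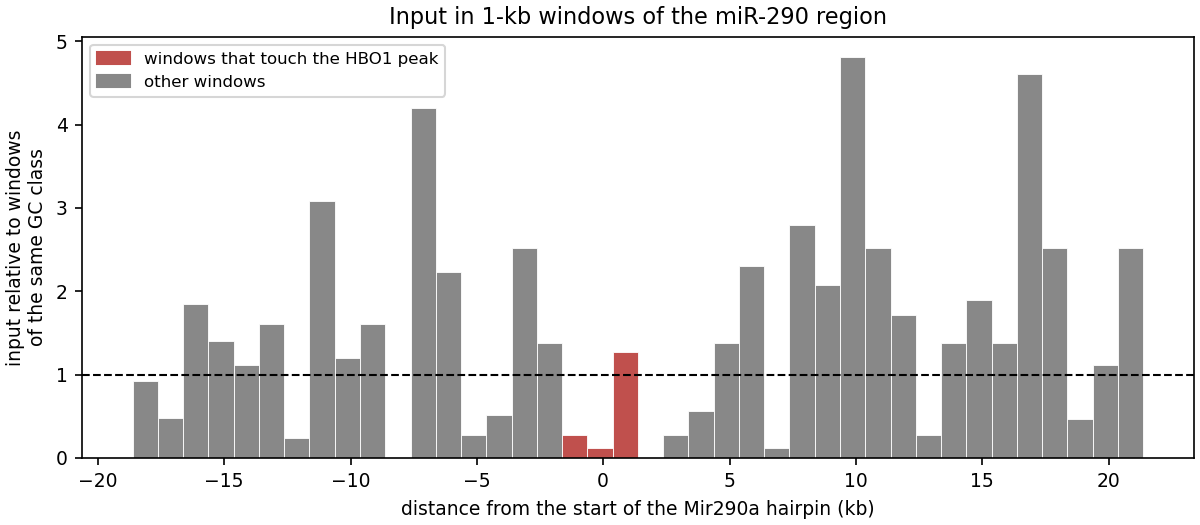
Input in 1-kb windows (mapping quality 20 or more), divided by the mean of windows of the same GC class (dashed line, 1), by distance from the start of Mir290a in kb. The 3 windows that touch the HBO1 peak (red) together hold 0.748 times and the 37 others (gray) 1.52 times the expected input. The red window that holds the summit is at 1.27.

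Compared with other miRNA genes, the cluster combined many hairpins with a strong peak. All 9 of its hairpins lay within 1 kb of the peak, while 6.90% of all miRNA genes had an HBO1 peak that near (152 of 2202; exact binomial 95% interval 5.88 to 8.04%). The 9 share a single peak, so they are not separate observations. In all, 162 peaks lay within 1 kb of a miRNA gene, with a median fold enrichment of 3.21. The highest values after 24.4 were 18.99, for a peak 104 bp from a gene on chromosome 15 that GENCODE types as miRNA under the name Snord43, and 11.2, at the predicted miRNA gene Gm23976 on chromosome 3. These genes are named here after their values were seen. The miR-290 peak overlapped 6 miRNA genes, and no other peak overlapped more than 2. Hairpins on the same strand within 10 kb of each other formed 15 clusters of at least 4. The miR-290 and miR-302 clusters were the 2 clusters with an HBO1 peak within 1 kb of a hairpin, and only the miR-290 cluster had hairpins inside a peak.

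**Figure D5:**
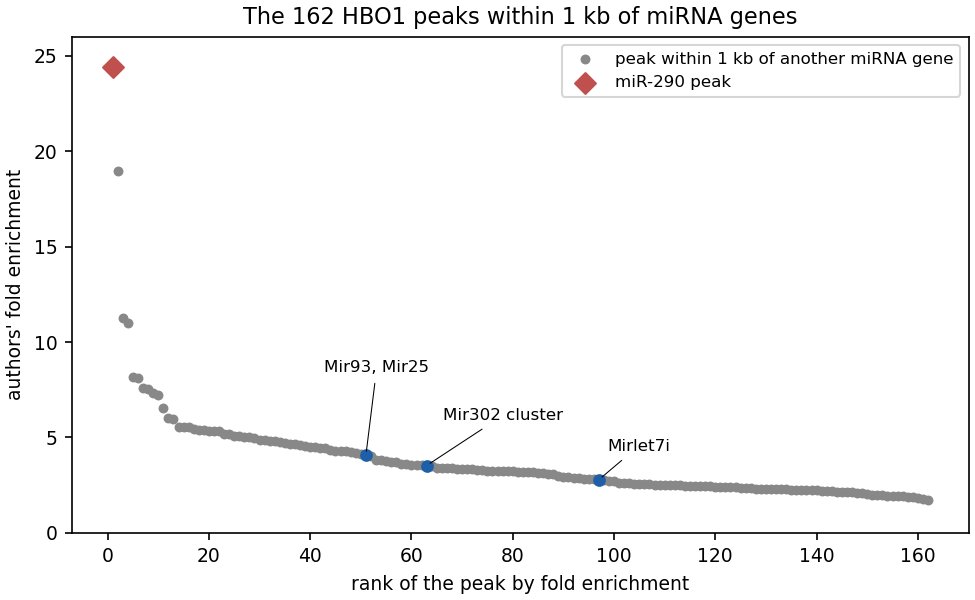
The 162 HBO1 peaks within 1 kb of miRNA genes, ranked by the authors' fold enrichment. The miR-290 peak (red diamond) is at 24.4 and the next at 18.99 and 11.2, and the peaks of Mir93 with Mir25, of the Mir302 cluster and of Mirlet7i (blue) are at 4.06, 3.53 and 2.78.

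The miR-302 cluster is the closest relative of the miR-290 cluster by seed. Its 5 hairpins, Mir302a to Mir302d and Mir367, lie at 127545228 to 127545807 on chromosome 3. A single peak was found within 20 kb, at 127546036 to 127546356, 321 bp wide, where the fold enrichment was 3.53 and the −log10 q 11.7. It overlapped none of the hairpins and was 229 bp from Mir367 and 735 bp from Mir302b. The peak of the miR-290 cluster was wider by 2112 to 321 bp, and its fold enrichment was 24.4 to 3.53. The windows around the miR-302 cluster held 3.98 times the input of GC-matched windows, against 1.42 times in the miR-290 region. The miR-302 cluster and its peak lie in a stretch of chromosome 3, from 100 to 140 Mb, that as a whole held 2.37 times the GC-matched input, and chromosome 3 was left out of the expected input for this reason. The part of this input in the difference between the peaks was not tested.

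Other miRNA genes known from ESCs were looked up as well. Of a list of 33 such genes, all of which were found in GENCODE, 9 (27.3%) had a peak within 1 kb, against 6.90% of all miRNA genes. The median distance to the nearest peak was 2284 bp in the list and 62391 bp over all miRNA genes. Several of the 9 share a peak, as the members of the miR-290 cluster do. Besides the 5 of the miR-302 cluster, these were Mir106b, Mir93 and Mir25, which form a cluster in an intron of Mcm7, and Mir148a. Mir93 and Mir25 were overlapped by a peak whose fold enrichment was 4.06 (−log10 q 11.3), and Mir106b by a separate peak at 3.401 (10.1). Mir148a was 483 bp from a peak at 2.44 (5.89). The hairpins of the Mir17 and Mir106a clusters and of the Mir200 family had none within 1 kb. For the Mir17 cluster the cutoff was missed narrowly. Mir17 was 1319 bp from a peak at 3.03 (15.3), whereas Mir106a was 245647 bp from its nearest peak and Mir141, of the Mir200 family, 4914 bp. Of 34 miRNA genes known from differentiated cells, 3 (8.82%) had a peak within 1 kb, and the median distance was 46705 bp. Mirlet7i, of the let-7 family that opposes the miR-290 family in ESCs, was overlapped by a peak whose fold enrichment was 2.78. Mir145a, which is known to repress pluripotency factors, was overlapped by a peak with 3.07, and its neighbour Mir143 was 764 bp from the same peak.

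Of 13 genes whose products make, carry or regulate miRNAs, 7 (53.8%) had their outermost annotated start within 1 kb of a peak, compared with 18.7% of protein-coding genes. The median distance was 950 bp, against 40334.5 bp over all protein-coding genes. The values given are those of the nearest peak. The 7 were Dgcr8, which binds the primary transcript with Drosha, with a fold enrichment of 2.06, and Tarbp2, a partner of Dicer, with 3.405. The Argonaute genes, which encode the proteins that hold the mature miRNA, were Ago1 with 3.397, Ago2 with 2.29 and Ago4 with 2.84. Lin28b, an inhibitor of let-7 processing, had 1.93. Trim71, a let-7 target in ESCs, had 3.02 over a width of 2079 bp, almost that of the miR-290 peak. Drosha, Xpo5, Dicer1, Prkra, Ago3 and Lin28a had no peak within 1 kb, and their nearest peaks were 4990 to 38595 bp away.

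Among 7 genes known as targets of the miR-290 family, the start of Ei24 alone lay within 1 kb of a peak (14.3%, against 18.7% of protein-coding genes), at a fold enrichment of 2.00 (−log10 q 6.95). Cdkn1a, which encodes the cell cycle inhibitor p21, had its nearest peak 2859 bp from the start, which reached 4.27 (−log10 q 43.4) over 2018 bp. Lats2, a kinase of the Hippo pathway, was 12318 bp from a peak, and Tgfbr2, a receptor of TGF-β, 78189 bp. Casp2, Rbl2 and Dkk1 had no peak within 100 kb. The median distance of the 7 starts to a peak was 78189 bp, against 40334.5 bp over all protein-coding genes.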

How the data were processed

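HBO1 was measured by ChIP-seq in 2 samples of Oct1 deficient ESCs, with 1 input. Per the labels and methods, read pairs were aligned by the authors to mm10 in Novoalign 4.03.01, and peaks were called in MACS2 (q 0.005, max-gap 100). Whether duplicates were removed and how the ChIP samples were combined is not given in the sources used here. The deposited peak list gives fold enrichment, the ratio of signal to local background in the authors' MACS2 output, with −log10 q as the authors' peak caller computed it, and a score that in every row follows from −log10 q. The deposited input lists aligned read ends, each with the score the authors' aligner gave for its mapping quality, and holds 31973678 read ends, 15963975 of them first reads. Columns of per-sample values that match no sample numbered 0.

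Coordinates are 1-based. Positions were compared with GENCODE vM21 and RefSeq for GRCm38, and all 4 named members were found by symbol. Mature miRNA sequences and the sequence before D7Ertd143e are those of RefSeq. Distances ran from the nearest peak edge to the hairpin, or to the outermost annotated start of other genes. Each input read end was placed at its midpoint. For relative input, read ends of mapping quality 20 or more were summed in 1-kb windows and divided by the mean over autosomal windows in that 2% class of GC, chromosome 3 left out (30 to 65% GC, up to 200 read ends). The shares of the gene lists have no interval. Intervals given for other shares are exact binomial 95% intervals. Those of input are exact Poisson intervals over read pairs, scaled to read ends. Both cover counting error only. Hairpins were aligned globally with Biopython 1.88. Other tools were Python 3.11.15, numpy 2.4.6, scipy 1.17.1, pandas 2.3.3 and matplotlib 3.10.9. The distance search, the motif search and the relative input were tested on simulated data.

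The members and the gene lists were chosen with earlier results of these data known. Named genes were every annotated gene of the region and the nearest gene on each side. Added to these were the genes whose outermost start was nearest to the 5 most alike peaks, and from each list every gene with a peak within 1 kb. List genes without such a peak, and Snord43 and Gm23976, were named after their values were seen. From 1 peak list no test was made.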

Additional observations from a re-analysis of the deposited data

How the results depend on the processing

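Of 23 alternative settings over 7 results, 16 left the value within 1.5 times of the count, or within the interval of the share or, over read ends, of the ratio. The region held 1 peak and the peak held 6 hairpins under every alternative tried for them. The rank of the peak was 1 by fold enrichment, also where only peaks of −log10 q 10 or more were ranked and where chromosome 3 from 100 to 140 Mb was left out, but 23 by −log10 q and 11 by width. The relative input of 1.42 ran from 1.30 with all read ends to 1.54 with 500-bp windows. The share of miRNA genes with a peak within 1 kb, 6.90%, was 4.04% where the peak had to overlap the hairpin, 13.1% within 5 kb and 3.72% where a −log10 q of 10 was the minimum, which follows from the narrower or wider rule. The distance from the start of Mir290a was 837 bp from the summit and 144 bp from the middle of the peak. The motif matches numbered 7 in the whole peak and 1 in the 300 bp around the summit, a shorter sequence. No paired analysis was possible because the ChIP samples share 1 deposited list of peaks, and for the same reason no replicate could be left out. The 13 input read ends under the peak limit how finely its background can be read.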
